A study of Homo sapiens with 20 samples.

Results

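The S100 proteins are a family of small calcium-binding proteins, and 10 of them are described here by their transcripts in biliary tract cancer cells: S100A2, S100A4, S100A6, S100A8, S100A9, S100A11, S100A13, S100A14, S100A16 and S100P. Members were taken by name, as the entries of the deposited count table whose RefSeq identifier carries one of these symbols, which gave 10 of 24222 entries. RNA sequencing had been performed on 20 established human cell lines, with 1 library per line. The lines were grown untreated in Dulbecco's medium with fetal serum, and total RNA was turned into libraries with a stranded mRNA kit. By the tumour they came from, 7 were gallbladder lines (SNU-308, TGBC14TKB, TGBC2TKB, G415, NOZ, OCUG-1, Mz-ChA-2) and 5 were extrahepatic bile duct lines (EGI-1, Sk-ChA-1, SNU-1196, SNU-245, TFK-1). Another 4 were intrahepatic bile duct lines (HuCCT1, HuH28, SNU-1079, TKKK) and 3 came from the ampulla of Vater, where the bile and pancreatic ducts open into the gut (SNU-478, SNU-869, TGBC18TKB). OZ carries both bile duct labels and was left out of the comparisons of sites. By origin, 13 lines came from primary tumours and 7 from metastatic disease, of which 6 were from ascites (G415, HuCCT1, NOZ, OCUG-1, OZ, Sk-ChA-1) and 1 from a liver metastasis (Mz-ChA-2). The repositories were KCLB (6 lines), RIKEN (6), HSRRB (4), DSMZ (2) and Zurich (2). Each line was sequenced once, so every spread is between lines, and a p-value measures nothing about repeat cultures of a line.

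S100 proteins pair up as dimers and change shape when calcium binds to their EF-hand loops, which lets them grip target proteins such as annexins and myosin. Several are also released from cells and act on surface receptors, S100A8 and S100A9 on Toll-like receptor 4 for example. Most of their genes lie side by side on the long arm of chromosome 1, beside genes of the skin's cornified envelope, whereas S100P lies alone on chromosome 4. In pancreatic and biliary tumours S100P, S100A4 and S100A6 have been studied as markers of malignant ducts.

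Levels are given as counts per mega (M) counts, or CPM, with library sizes scaled by the TMM method, which evens out differences in RNA composition. Library totals were 10.47 to 15.41 M counts, with a median of 12.49 M. Where a gene had no count, up to 3 counts were held possible, or 0.206 to 0.294 CPM depending on the line. Intervals on single lines are exact Poisson 95% intervals, and these and the floor cover counting error only. In bulk RNA, a change in the share of cells that express a gene and a change in RNA per cell cannot be told apart. The labelled tissue was checked against 6 markers of glandular epithelium (KRT7, KRT8, KRT18, KRT19, EPCAM, CDH1), whose summed level ran from 196 CPM in HuH28 to 13262 CPM in SNU-245. HuH28 had 0.257 CPM of EPCAM and the highest sum of fibroblast markers, 8498 CPM, chiefly COL1A1 at 7970 CPM. SNU-1079 and TGBC2TKB also had high fibroblast sums, 4126 and 2139 CPM against a median of 88.4 over lines. Their glandular sums were 4430 and 1679 CPM.

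The members summed to between 265 CPM in Mz-ChA-2 and 5186 CPM in SNU-245. Per kb of transcript the median levels ran in the order S100A6 (1965 CPM per kb), S100A11 (689), S100A16 (170), S100A13 (97.4), S100A14 (44.6), S100A4 (41.7), S100P (29.1), S100A2 (12.8), S100A9 (0.275) and S100A8 (0). The ranges of neighbours in this order overlapped over the lines. S100A6 was the highest member per kb in 16 lines, S100A11 in 2, S100A4 in 1 and S100A2 in 1. The members fell into a broadly expressed set (S100A6, S100A11, S100A16, S100A13) and a set that was high in some lines and scarce or absent in others. As a measure of that spread, the SD of log2 CPM over lines was 0.89 for S100A11, 1.00 for S100A16, 1.16 for S100A13 and 1.26 for S100A6, against a median of 0.90 over all genes tested. It was 1.79 for S100A8, 2.71 for S100A2, 2.91 for S100A4, 3.30 for S100A9, 4.05 for S100P and 4.18 for S100A14. The last 2 values exceeded those of 99.5% and 99.7% of genes tested.

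**Figure D1:**
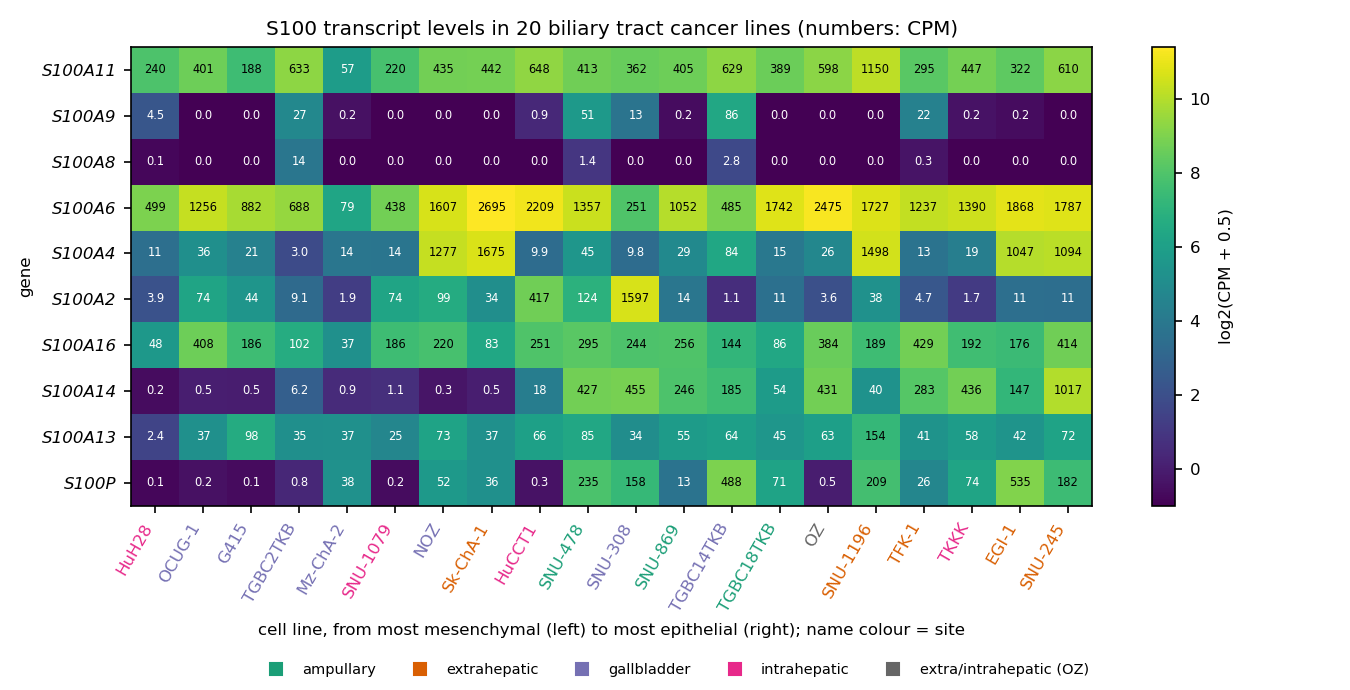
Colour shows log2(CPM + 0.5) of the 10 S100 genes (rows, in chromosome order with S100P last) in 20 lines (columns, ordered by an epithelial minus mesenchymal score), with the CPM printed in each cell. S100A6 is at 78.8 CPM or more in every line, whereas S100A4, S100A14, S100P and S100A9 differ widely, from high in some lines to scarce or near 0 in others.

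S100A6, also called calcyclin, is a partner of the ubiquitin-pathway protein CACYBP and of annexins. Its level was 1306 CPM at the median, from 78.8 CPM in Mz-ChA-2 to 2695 CPM in Sk-ChA-1, and 19 of 20 lines had at least 100 CPM. Extrahepatic lines had 1868 CPM in EGI-1, 2695 in Sk-ChA-1, 1727 in SNU-1196, 1787 in SNU-245 and 1237 in TFK-1. Ampullary lines had 1357 CPM in SNU-478, 1052 in SNU-869 and 1742 in TGBC18TKB. Intrahepatic lines split into HuCCT1 (2209 CPM) and TKKK (1390) above and HuH28 (499) and SNU-1079 (438) below. Gallbladder lines had a lowest value of 78.8, a median of 688 and a highest value of 1607 CPM. The extrahepatic and ampullary lines all lay above 1000 CPM, but the other sites reached into their range.

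S100A11, or calgizzarin, binds annexin A1 at membranes. It had a median of 409 CPM and ran from 57.2 CPM in Mz-ChA-2 to 1150 CPM in SNU-1196. Its 3 ampullary lines were within 389 to 413 CPM, the narrowest spread of any site for this gene. S100A11 also has 10 pseudogene copies in the RefSeq table, so its counts are uncertain by the reads that the authors' counting may have lost to or taken from them. S100A16, a member found in many tissues, had a median of 190 CPM, from 36.9 CPM in Mz-ChA-2 to 429 CPM in TFK-1. S100A13, which helps to carry FGF1 and interleukin 1 alpha out of cells, had a median of 50.1 CPM. SNU-1196 had the most, 154 CPM, and HuH28 the least, 2.40 CPM (28 counts, interval 1.59 to 3.47). The next lowest line, SNU-1079, had 25.3 CPM, 10.6 times as much as HuH28. Mz-ChA-2 was the lowest line for 3 members (S100A6, S100A11, S100A16) and HuH28 for 3 others (S100A13, S100A14, S100P).

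The broadly expressed members varied together in part. Across the 20 lines, log2 levels of S100A11 and S100A6 correlated at r = 0.69 (rho = 0.50), and at 0.36 without the 2 lines farthest from the S100A11 median. S100A16 correlated with S100A6 at r = 0.50, or 0.33 without the 2 lines farthest from the S100A6 median. It gave 0.50 with S100A13, or 0.17 without the 2 lines farthest from the S100A16 median. S100A11 gave 0.48 with S100A16 (0.20 without the 2 lines farthest from the S100A11 median) and 0.39 with S100A13, and S100A6 gave 0.36 with S100A13. Within the 6 KCLB lines S100A11 and S100A6 gave r = 0.70, and within the 6 RIKEN lines -0.04. For S100A11 with S100A13 these values were 0.92 and -0.61, and for S100A16 with S100A13 they were 0.15 and 0.70. These correlations have no p-value. The lines share the library method and differ in site, origin and repository.

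S100A4, known as metastasin, binds non-muscle myosin and is a usual marker of motile and fibroblast-like cells. It was either abundant or scarce in these lines. In 5 lines it stood at 1675 CPM (Sk-ChA-1), 1498 (SNU-1196), 1277 (NOZ), 1094 (SNU-245) and 1047 (EGI-1). The next line, TGBC14TKB, had 84.0 CPM, a gap of 12.5 times, and the other 14 lines had 3.04 to 45.5 CPM. Of the high lines, 4 were extrahepatic and NOZ was a gallbladder line. TFK-1 was the extrahepatic line without it, at 12.9 CPM (182 counts, interval 11.1 to 14.9). The other gallbladder lines ran from 3.04 to 84.0 CPM, ampullary lines from 15.3 to 45.5 and intrahepatic lines from 9.90 to 19.5. OZ, labelled with both duct sites, had 26.0 CPM. None of the 6 RIKEN lines exceeded 84.0 CPM, and none of those 6 is extrahepatic, so site and repository cannot be told apart there.

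HuH28 and TGBC2TKB, the lines richest in mesenchymal transcripts, had little S100A4, as did most lines (median 23.6 CPM). HuH28, the most mesenchymal line, had 11.1 CPM. TGBC2TKB, with the next highest mesenchymal list score, had 3.04 CPM, the lowest of all. OCUG-1, which followed by that list score, had 36.0 CPM. S100A5, the neighbour of S100A4, has an annotated end that overlaps that of S100A4 on the same strand. It had at most 13.2 CPM (SNU-1196) and correlated with S100A4 at r = 0.76 (rho = 0.45). Within KCLB the correlation was 0.92 and within RIKEN 0.06. Whether reads in the overlap were counted for both was not tested. S100A3, the gene on the other side, gave r = -0.01.

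Promoter sequences are shown for S100A6, the member of highest median level, and for S100A4, S100A14 and S100P, on which the comparisons by site and along the score turn. Each is the 250 bases before the RefSeq start site on the strand of the gene, 5′ to 3′, from RefSeq on GRCh38.p14. The authors aligned to the earlier build GRCh37, so these positions are not those of their files. Capitals mark matches, on either strand, to an AP-1 site (TGANTCA), an E-box (CACCTG) or a GC box (GGGCGG), with overlapping matches counted.
S100A6, chr1:153535992-153536241, minus strand: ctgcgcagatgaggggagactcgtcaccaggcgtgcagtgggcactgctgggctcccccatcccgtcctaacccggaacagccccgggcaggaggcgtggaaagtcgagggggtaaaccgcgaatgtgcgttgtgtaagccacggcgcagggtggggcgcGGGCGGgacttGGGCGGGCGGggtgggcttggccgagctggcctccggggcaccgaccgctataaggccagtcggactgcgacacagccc
S100A4, chr1:153545807-153546056, minus strand: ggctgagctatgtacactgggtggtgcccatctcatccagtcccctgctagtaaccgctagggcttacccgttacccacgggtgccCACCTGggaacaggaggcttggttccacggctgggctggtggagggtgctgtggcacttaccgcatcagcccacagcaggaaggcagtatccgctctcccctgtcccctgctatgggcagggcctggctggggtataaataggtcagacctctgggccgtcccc
S100A14, chr1:153616326-153616575, minus strand: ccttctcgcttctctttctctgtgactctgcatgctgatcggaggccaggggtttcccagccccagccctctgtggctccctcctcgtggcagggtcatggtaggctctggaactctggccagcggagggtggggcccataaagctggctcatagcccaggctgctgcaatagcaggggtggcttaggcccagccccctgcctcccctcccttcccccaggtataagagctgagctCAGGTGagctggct
S100P, chr4:6693628-6693877, plus strand: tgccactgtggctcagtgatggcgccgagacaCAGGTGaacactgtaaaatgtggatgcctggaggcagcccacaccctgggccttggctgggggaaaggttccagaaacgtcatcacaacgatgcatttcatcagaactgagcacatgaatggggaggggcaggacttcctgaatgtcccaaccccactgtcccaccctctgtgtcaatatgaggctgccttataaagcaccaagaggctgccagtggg
The S100A6 window held 3 GC boxes and 24 CpG dinucleotides, more CpGs than 76.3% of 35116 windows of this length. The S100A4, S100A14 and S100P windows each held 1 E-box and no GC box, with 7, 4 and 4 CpGs, against a median of 11. None of these 4 windows held an AP-1 match. The other members did not divide by these letters. The first start of the broadly expressed S100A16 had 2 E-boxes, no GC box and 1 CpG, its second start had 1 GC box and 6 CpGs, and S100A11 and the first start of S100A13 had 1 GC box and 15 CpGs each. S100A9 had 1 E-box, 1 GC box and 4 CpGs, the 3 starts of S100A8 had 1 E-box and 2 CpGs each, and the first start of S100A2 held the only AP-1 match of the 10 members, with 4 CpGs. Over all windows, 42.6% held the GC box, 17.5% the E-box and 6.57% the AP-1 letters. The match is a description of the letters in these windows only.

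S100A14, a member found mainly in epithelia, had the widest spread of the family. It ran from 0.171 CPM in HuH28 (2 counts, interval 0.0207 to 0.619) to 1017 CPM in SNU-245, with a median of 47.2 CPM. S100P, first described in placenta and a binding partner of the membrane linker ezrin, ran from 0.0856 CPM in HuH28 (1 count) to 535 CPM in EGI-1, with a median of 37.3 CPM. Both were compared with an epithelial minus mesenchymal score, the difference between the mean centred log2 CPM of 30 epithelial and of 30 mesenchymal genes, neither of which holds an S100 gene. SNU-245 had the highest score, 5.55, and HuH28 the lowest, -11.68.

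All 12 lines with a score above 0 had at least 18.3 CPM of S100A14, and all 8 lines below 0 had at most 6.17 CPM. The score comes from the same libraries, and how many of all genes separate these lines likewise was not counted. The upper lines were SNU-245 (1017 CPM), SNU-308 (455), TKKK (436), OZ (431), SNU-478 (427), TFK-1 (283), SNU-869 (246), TGBC14TKB (185), EGI-1 (147), TGBC18TKB (54.5), SNU-1196 (40.0) and HuCCT1 (18.3). HuCCT1, the lowest of them, had the score nearest to 0, 0.37. Below 0 stood TGBC2TKB (6.17 CPM), SNU-1079 (1.07), Mz-ChA-2 (0.933), OCUG-1 (0.544), Sk-ChA-1 (0.522), G415 (0.507), NOZ (0.314) and HuH28 (0.171). Among the 8 lines below 0 the level did not grade with the score (r = 0.23), and among the 12 above 0 it did so in part (r = 0.56).

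S100P followed the score with exceptions on both sides. Above 0 it reached 535 CPM in EGI-1, 488 in TGBC14TKB, 235 in SNU-478, 209 in SNU-1196, 182 in SNU-245, 158 in SNU-308, 74.1 in TKKK, 71.5 in TGBC18TKB, 25.7 in TFK-1 and 12.6 in SNU-869. HuCCT1 (0.256 CPM, 3 counts) and OZ (0.498 CPM, 6 counts) lay above 0 and had almost none. Below 0, NOZ (51.8 CPM), Mz-ChA-2 (38.1) and Sk-ChA-1 (36.4) had it, and the other 5 lines had at most 0.822 CPM. NOZ, Mz-ChA-2 and Sk-ChA-1 thus held S100P without S100A14, and OZ and HuCCT1 held S100A14 with almost no S100P.

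In a limma fit over 16556 genes, 3 of 10 members passed a Benjamini-Hochberg adjusted p of 0.05 along the score, all 3 higher in epithelial lines. Of all genes, 8.15% passed (1350) and 4.19% passed as higher with the score (693). S100A14 gained 0.82 log2 units per unit of score (SE 0.107, adjusted p = 7.04e-05), S100P 0.66 (SE 0.142, adjusted p = 0.00595) and S100A13 0.17 (SE 0.0453, adjusted p = 0.0213). The median slope was 0.11 over the members and 0.00055 over all genes. S100A16 had a slope of 0.11 (adjusted p = 0.121) and S100A11 of 0.09 (0.223). Neither S100A4 (slope 0.23, adjusted p = 0.329), S100A6 (0.11, 0.298), S100A2 (-0.02, 0.955), S100A9 (-0.01, 0.984) nor S100A8 (-0.05, 0.826) passed. The S100A13 slope rested on HuH28. Without that line it was 0.05 (adjusted p = 0.562), and its correlation with the score was 0.22 without HuH28 and OCUG-1 against 0.65 with them. S100A14 passed with each of the 20 lines left out in turn, and so did S100P.

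S100A14 correlated with the score at r = 0.86 (rho = 0.79) over all lines, at 0.84 within KCLB and at 0.92 within RIKEN. For S100P the values were 0.71 (rho = 0.69), 0.85 and 0.81. With repository as a covariate the S100P slope was 0.58 (adjusted p = 0.0566), and with limma-voom 0.76 (0.0843), over alternatives that ran from 0.00472 to 0.0843. S100A13 lost its call under limma-voom (adjusted p = 0.0966) and with site (0.0837) or repository (0.0802) as a covariate, over a range of 0.0196 to 0.0966.

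**Figure D2:**
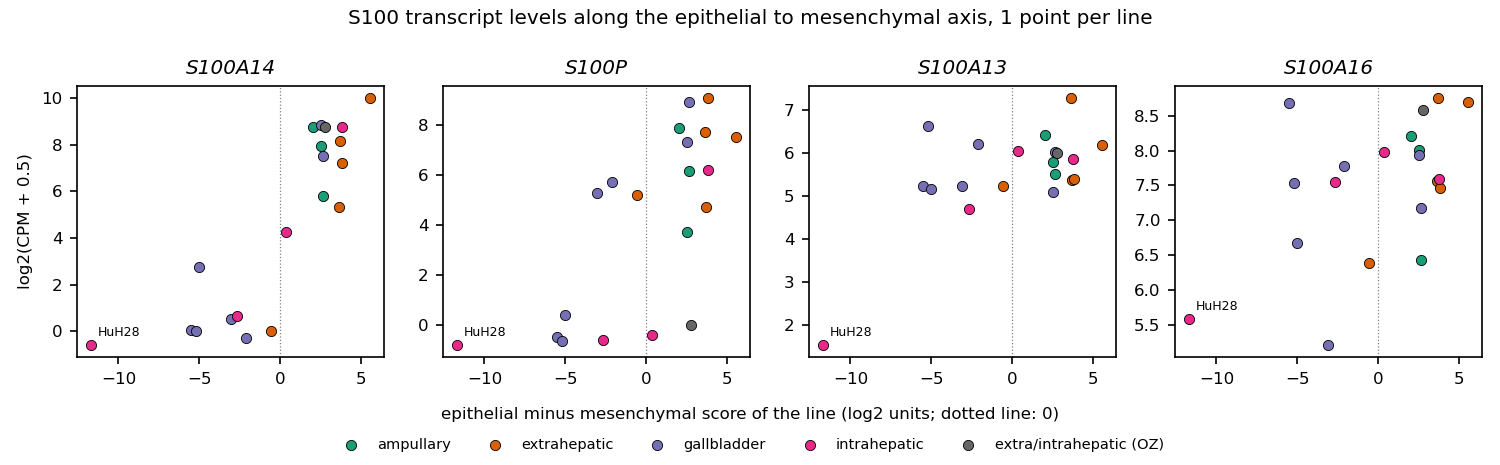
Each point is 1 line, with the epithelial minus mesenchymal score on the horizontal axis (log2 units) and log2(CPM + 0.5) of the named S100 gene on the vertical axis, coloured by site. S100A14 is at most 6.17 CPM below a score of 0 and at least 18.3 CPM above it, S100P follows the score with exceptions, and the S100A13 slope depends on HuH28. How many of all genes separate the lines at 0 was not counted.

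S100A14 and S100P correlated with each other at r = 0.56 (rho = 0.55), at 0.82 within KCLB and at 0.85 within RIKEN. The genes most like S100A14 over the 20 lines, among 12958 genes with a mean of at least 5 CPM, were CBLC (r = 0.95), RBBP8NL (0.95), TMEM125 (0.95), RAB25 (0.94) and an entry without a symbol, NR_039988 (0.94). RAB25 is itself one of the 30 epithelial genes of the score, and CBLC encodes a ubiquitin ligase of the Cbl family. Those most like S100P were TNNC1 (r = 0.85), HOXC11 (0.83), HOXC10 (0.80), LARGE2 (0.80) and HOTAIR (0.79), of which HOXC11, HOXC10 and HOTAIR are neighbours in the HOXC cluster. S100A4 was most like HOTTIP (r = 0.78, rho = 0.54), PDCD4 (0.71), NIPAL4 (0.71), HOXA13 (0.70) and MED30 (0.70), and HOTTIP and HOXA13 adjoin at the end of the HOXA cluster. S100A4 and S100P themselves correlated at r = 0.54 (rho = 0.49). For S100A6 the most alike were HOXB6 (r = 0.88), NBL1 (0.87) with its read-through entry MICOS10-NBL1 (0.87), ACSL5 (0.85) and INF2 (0.84). For S100A11 they were C19orf33 (0.82), SLC39A4 (0.81), TRMT61A (0.79, or 0.29 without the 2 lines farthest from the S100A11 median), ARHGAP39 (0.79) and LGALS3 (0.79). For S100A13 they were SAMD10 (0.86), EEF1B2 (0.85), IRS2 (0.84), CHMP4C (0.83) and SVIP (0.82). Without the 2 lines farthest from the S100A13 median, EEF1B2 fell to 0.40, CHMP4C to 0.32 and IRS2 to 0.22. For S100A16 they were CTBP2 (0.78), IL17RE (0.77), SFN (0.76), MLLT3 (0.76) and ATP5MJ (0.76). Without the 2 lines farthest from the S100A16 median, SFN fell to 0.38, MLLT3 to 0.45 and ATP5MJ to 0.41.

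S100A2, a target of p53-family factors in basal and squamous epithelium, was high in few lines. SNU-308 had 1597 CPM (interval 1577 to 1618), HuCCT1 417 and SNU-478 124, and the other 17 lines had 1.05 to 98.8 CPM. In SNU-308, S100A2 exceeded S100A6 (251 CPM) per kb and S100A6 made up 8.04% of the summed members, the least of any line. The sum of 8 squamous markers was also highest in SNU-308, at 2928 CPM against a median of 16.9 CPM over lines. KRT6A (1721 CPM), TP63 (586), KRT13 (407) and DSG3 (198) peaked in SNU-308. The rest of the list peaked in other lines, KRT5 at 36.6 CPM, KRT14 at 36.8, IVL at 3.98 and SPRR1B at 0.929. HuCCT1, the next line for S100A2, had a squamous sum of 42.4 CPM, and the part of these markers in the S100A2 level was not tested. The genes most like S100A2 were UTP15 (r = 0.83), ZCCHC9 (0.78), SYPL1 (0.73), METTL8 (0.73) and NPM3 (0.73). S100A3, its neighbour on the chromosome, reached at most 10.1 CPM (OCUG-1) and correlated with S100A2 at r = 0.80 (rho = 0.81), at 0.79 within KCLB and 0.95 within RIKEN.

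S100A8 and S100A9 form calprotectin, the abundant calcium-binding complex of neutrophils and monocytes that epithelia also make when inflamed. S100A9 was above 1 CPM in 6 lines. It stood at 86.2 CPM in TGBC14TKB (interval 81.5 to 91.2), 50.9 in SNU-478, 26.8 in TGBC2TKB, 21.7 in TFK-1, 13.2 in SNU-308 and 4.45 in HuH28. The other 14 lines had at most 0.853 CPM (HuCCT1, 10 counts, interval 0.409 to 1.57), and 9 of them had no count. S100A8 had no count in 15 lines. It reached 14.2 CPM in TGBC2TKB (173 counts, interval 12.2 to 16.5), 2.80 in TGBC14TKB (40 counts), 1.44 in SNU-478 (17 counts) and 0.283 in TFK-1 (4 counts), with 1 count in HuH28. These are 5 of the 6 lines above 1 CPM of S100A9, and SNU-308 had S100A9 without a count of S100A8. The genes correlated at r = 0.78 (rho = 0.77), or 0.65 without the 2 lines farthest from the S100A9 median. Within KCLB they gave 0.75 and within RIKEN 0.89. SNU-478 was the only KCLB line with a count of S100A8, and TGBC2TKB and TGBC14TKB were the only RIKEN lines. The values within repositories thus rest on those lines against lines tied at 0. TGBC2TKB held the most S100A8 but less S100A9 than TGBC14TKB or SNU-478.

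Leukocyte markers, summed over 12 genes, were spread over both low and high values in the 6 lines above 1 CPM of S100A9. The sum was 200.3 CPM in TGBC2TKB, 208 in HuH28, 54.8 in TFK-1, 43.9 in SNU-478, 21.4 in TGBC14TKB and 13.8 in SNU-308, against a median of 93.8 over all lines. SNU-308 had the lowest sum of all, and SNU-245, with no count of S100A8 or S100A9, the highest (3106 CPM, of which LYZ gave 3029). CD14, a monocyte marker, was highest in TGBC2TKB, the top line for S100A8, at 12.9 CPM. No other gene of the leukocyte list peaked in that line. ITGAM (3.89 CPM) and PTPRC (1.32) were highest in TKKK and CSF3R (3.03) in Mz-ChA-2. The part of these markers in the S100A8 level was not tested. TYROBP and ELANE stayed under 1 CPM in every line. The genes most like S100A9 were BASP1 (r = 0.84), MARK1 (0.83), OLR1 (0.82), CIDECP1 (0.79) and IFI30 (0.77). For S100A8 they were MUC15 (0.85, or 0.34 without the 2 lines farthest from the S100A8 median), TAF11 (0.72), SLC34A2 (0.70), MARK1 (0.68) and ATRAID (0.68, or 0.18 without those lines).

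**Figure D3:**
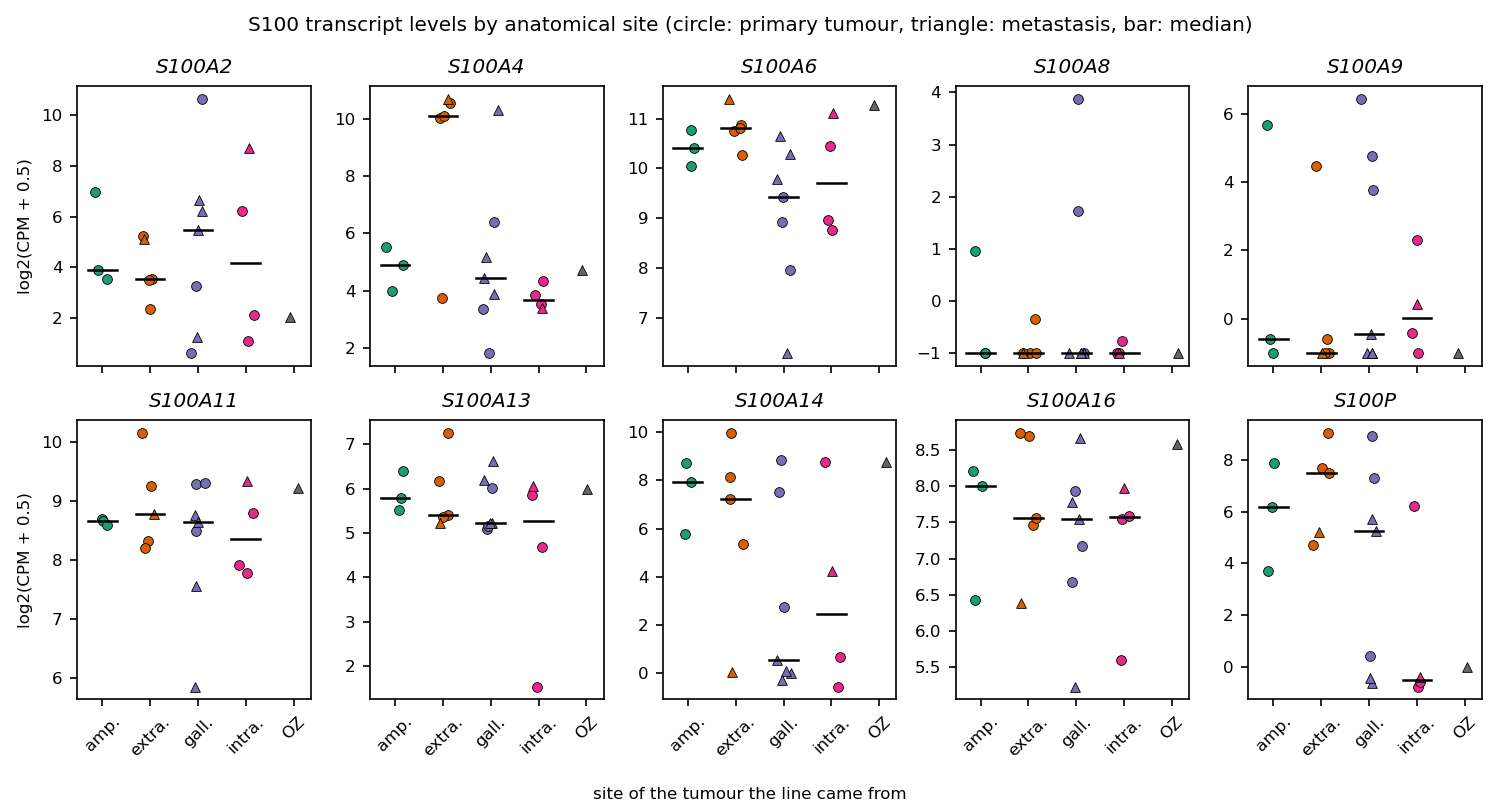
Each panel shows 1 S100 gene, with site on the horizontal axis, log2(CPM + 0.5) on the vertical axis, 1 point per line (circle for primary, triangle for metastasis) and a bar at the site median. S100A4 is above 1000 CPM in 4 of 5 extrahepatic lines. S100A9 is at or below 0.853 CPM in all 7 lines from metastases, and the 13 primary lines also have a low median, 0.248 CPM.

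Lines of each site were set against the plain average of the 3 remaining sites by edgeR's quasi-likelihood test over 16615 genes in 19 lines. No member passed an adjusted p of 0.05 in any of these contrasts. The same held for nearly all genes. In the extrahepatic contrast 0% of genes passed, and 1 of 10 members had an unadjusted p under 0.05, where 7.01% of all genes did. That member was S100A4, with a log2 difference of 4.62 (SE 1.08, adjusted p = 0.281) and 4 of 5 extrahepatic lines above all but 1 of the other lines. The difference became a call under DESeq2 (4.62, adjusted p = 0.000574, over alternatives from 0.000574 to 0.593), and in edgeR when NOZ was left out (5.56, adjusted p = 0.0206, over lines left out from 0.0206 to 0.727). S100A5 had a log2 difference of 3.82 in the same contrast (adjusted p = 0.463). The members' median difference was 0.49, against -0.02 over all genes.

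In the gallbladder contrast 0% of genes passed, and 1 of 10 members had an unadjusted p under 0.05 against 12.3% of genes. This was S100A8, with a log2 difference of 4.62 (SE 1.60, adjusted p = 0.270), which came from TGBC2TKB and TGBC14TKB while the other 5 gallbladder lines had no count. Leaving out either of those lines removed S100A8 from the test by the count filter. With repository as a covariate the difference was 0.47 (adjusted p = 0.993), over alternatives from 0.220 to 0.993. S100A2 had a difference of 2.40 (SE 1.19, adjusted p = 0.431), which turned to -0.38 without SNU-308 and to -0.44 under DESeq2. S100A6 had a difference of -0.94 (SE 0.471, adjusted p = 0.436). The members' median was 0.25, against 0.11 over all genes.

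In the intrahepatic contrast 0% of genes passed, and 1 of 10 members had an unadjusted p under 0.05 against 9.47% of genes. S100A4 had a log2 difference of -3.74 (SE 1.49, adjusted p = 0.403), with all 4 lines between 9.90 and 19.5 CPM, inside the range of the other sites. DESeq2 called it (-3.73, adjusted p = 0.0269, over alternatives from 0.0269 to 0.880). S100P had 74.1 CPM in TKKK and at most 0.256 CPM in the other 3 intrahepatic lines, for a difference of -2.77 (SE 1.93, adjusted p = 0.720), or -9.51 without TKKK. The median of the members was -0.68, against 0.04 over all genes. In the ampullary contrast 0.00602% of genes passed (1 gene), and 0 of 10 members had an unadjusted p under 0.05 against 5.25% of genes. Its largest member differences were S100A4 at -2.29 (SE 1.53, adjusted p = 0.931) and S100A9 at 1.79 (SE 2.04, adjusted p = 0.972, or -5.73 without SNU-478), and the members' median was 0.22 against -0.11.

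Over all 4 sites jointly, 0.00602% of genes passed and no member did. An unadjusted p under 0.05 was reached by 2 of 10 members, S100A4 (adjusted p = 0.288) and S100A8 (0.452), against 10.7% of genes. S100A8 reached the count filter through the few lines that had it, chiefly TGBC2TKB (173 counts) and TGBC14TKB (40 counts). Leaving out either line removed it here too, so its p is not independent of the filter and is not to be read against the share of genes. Under DESeq2 the S100A4 test gave an adjusted p of 0.00460, over alternatives from 0.00460 to 0.721.

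Lines from metastatic disease were then compared with lines from primary tumours in an edgeR fit over 14843 genes. No member passed, nor did any gene (0%). Of 9 members tested, 2 had an unadjusted p under 0.05, against 7.73% of genes, and S100A8 was not tested because it did not reach the count filter. S100A9 was at or under 0.853 CPM in all 7 lines from metastases, with a median of 0, whereas the 13 primary lines had a lowest value of 0, a median of 0.248 and a highest of 86.2 CPM. The groups overlapped at the low end, and the log2 difference was -6.61 (SE 2.06, adjusted p = 0.454). DESeq2 called it (-6.67, adjusted p = 0.00937), over alternatives from 0.00937 to 0.946, and with repository as a covariate it was not called. S100A9 reached the count filter mainly through the primary lines that had it, the group where it was high. With 1 line left out in turn, S100A9 was tested in 14 of 20 fits and called in 0. The difference thus rests on those primary lines, and the DESeq2 call is not independent of the filter. All 5 lines with a count of S100A8 were primary lines. S100P ran from 0.145 to 51.8 CPM in the 7 lines from metastases, with a median of 0.498, and from 0.0856 to 535 CPM in the primary lines, with a median of 74.1. Its log2 difference was -3.08 (SE 1.46, adjusted p = 0.636). S100A4, the member named for metastasis, had a median of 26.0 CPM in lines from metastases and 19.5 CPM in primary lines, a log2 difference of 0.53 (SE 1.28, adjusted p = 0.961) that turned to -0.40 without Sk-ChA-1 and to -0.0194 without NOZ. The members' median was -0.27 against -0.02.

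By repository, in 4 levels with DSMZ and Zurich merged, 0.00623% of 16051 genes passed and 0 of 9 members did, S100A8 again being untested. No member had an unadjusted p under 0.05, where 9.04% of genes did. The smallest adjusted p was 0.587 for S100A4, followed by 0.595 for S100A2.

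Most other genes of the family were scarce. Of 11 further S100 genes listed, 10 were measured, 4 were tested and 0 passed along the score (8.15% of all genes) or in any other comparison. S100A10, the annexin A2 light chain, was the only one to reach 100 CPM, with a median of 414 CPM, from 38.3 CPM in HuH28 to 1248 CPM in Sk-ChA-1. It correlated with S100A11 at r = 0.69 (rho = 0.68), at 0.93 within KCLB and 0.13 within RIKEN. With S100A6 it gave 0.67, or 0.55 within KCLB and 0.26 within RIKEN. The S100A10 slope along the score was 0.16 (adjusted p = 0.0864). Medians were 1.60 CPM for S100A3, 0.910 for S100A1 and 0.182 for S100A5, above those of S100A9 (0.159) and S100A8 (0). S100B, the marker of glial and Schwann cells, was found above 1 CPM in SNU-869 only, at 23.8 CPM. S100A7, S100A7A, S100A12, S100G and S100Z stayed under 1 CPM in every line. S100A1, which overlaps S100A13 on the opposite strand, had at most 3.04 CPM, and reads of the 2 genes cannot be told apart where the strand setting of the counting is unknown.

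Among the 45 pairs of members, 33 correlated positively and the median r was 0.18. Above 0.5 were 7 pairs, and 2 were below -0.3, among them S100A9 with S100A4 at -0.40. Neighbours on the chromosome were not always the most alike. S100A16 and S100A14, which are neighbours, gave 0.52, S100A14 and S100A13, the next neighbours, gave 0.39, and S100P on chromosome 4 gave 0.56 with S100A14. Within KCLB these pairs gave 0.79, 0.36 and 0.82, and within RIKEN -0.04, -0.30 and 0.85. The 20 non-S100 genes around the cluster had 0 calls along the score, where 8.15% of all genes were called, and 0 in the other comparisons, where at most 0.00623% were, so little can be read from either count. Members correlated with the median level of these 20 genes at -0.22 (S100A6) to 0.46 (S100A13). Of 18 cornified envelope genes from the same stretch, 16 were measured and 5 tested, none was called, and none reached 100 CPM in any line. The highest was filaggrin (FLG) at 34.8 CPM in SNU-1079.

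**Figure D4:**
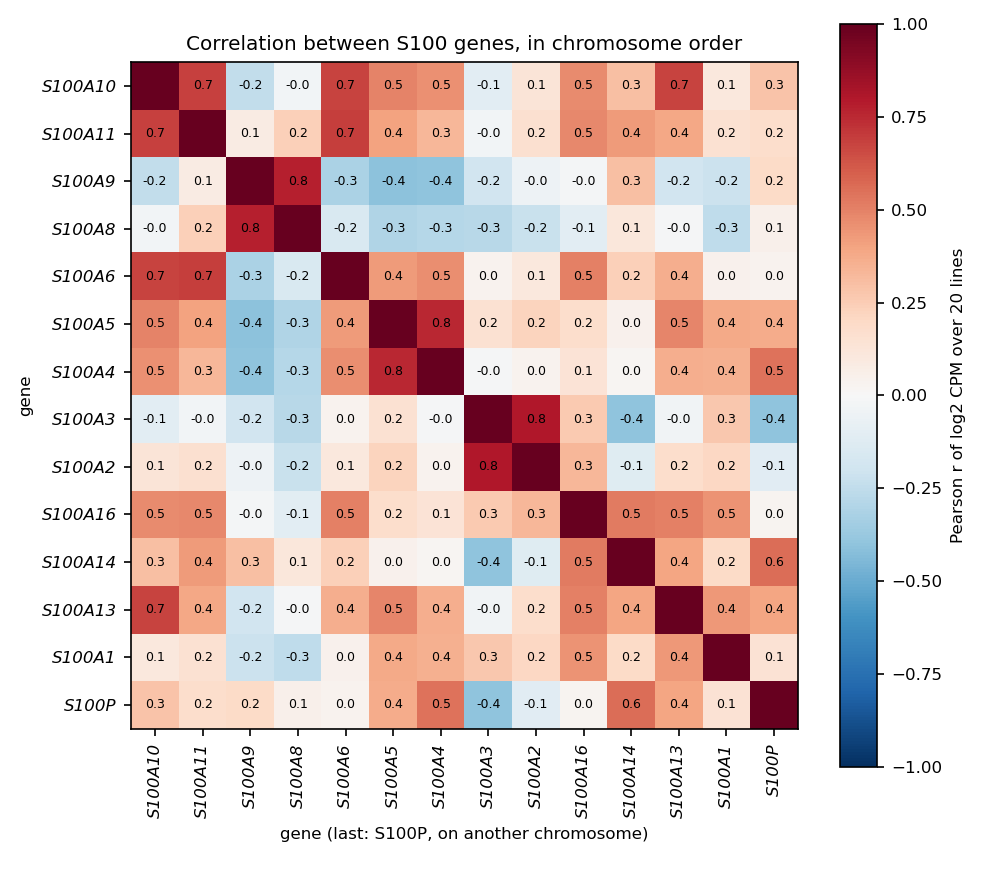
Each cell gives Pearson's r of log2 CPM over 20 lines for a pair of S100 genes, in chromosome order with S100P last. High values include S100A9 with S100A8 (0.78), S100A3 with S100A2 (0.80), S100A5 with S100A4 (0.76) and S100A6, S100A10 and S100A11 with one another (0.67 to 0.69). Within the RIKEN lines the first 2 pairs gave 0.89 and 0.95 and S100A5 with S100A4 0.06. S100A10 gave 0.13 with S100A11 and 0.26 with S100A6 there, and S100A11 with S100A6 gave -0.04. The 0.89 rests on TGBC2TKB and TGBC14TKB, the only RIKEN lines with a count of S100A8.

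Partners and receptors of S100 proteins were present in most lines. Of 22 listed, 21 were measured and tested. Along the score 1 was higher in epithelial lines and 2 were lower, 3 of 21 in all, against 8.15% of all genes called (4.19% as higher). EZR, the ezrin that S100P binds, gained 0.14 log2 units per unit of score (SE 0.0410, adjusted p = 0.0390), with a median of 650 CPM. ANXA5, a membrane-binding annexin, lost 0.20 (slope -0.20, SE 0.0360, adjusted p = 0.00120), and FGF1, which S100A13 helps to export, had a slope of -0.35 (SE 0.103, adjusted p = 0.0352). FGF1 was scarce, with at most 47.2 CPM (G415). MYH9, the myosin that S100A4 binds, had 474 to 6155 CPM, and ANXA2, the partner of S100A10, 272 to 2451 CPM. CACYBP, the partner of S100A6, varied little, from 46.4 to 126 CPM. BSG, a surface receptor for S100A9, had 301 to 1486 CPM, whereas TLR4 had a median of 2.18 CPM and reached 135 CPM in HuH28. No partner or receptor was called in the comparisons of site, origin or repository.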

How the data were processed

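The values are whole-number read counts per RefSeq entry for 20 lines, deposited by the authors without normalization. Reads were handled with featureCounts, Picard 1.69, TopHat2 2.0.8 and Trimmomatic on build hg19/GRCh37, per the submitters' processing notes. How featureCounts treated strand, and with which annotation release, is not given in the sources used here. Symbols came from a RefSeq gene table (23204 entries) and GENCODE metadata (348), and 670 entries kept their identifiers. Transcript lengths are those of the matching RefSeq identifier in GENCODE and may differ from the authors' gene models.

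CPM used TMM-scaled library sizes. Sites, origin and repository were compared with edgeR 4.0.16 in R 4.3.3 (two-sided quasi-likelihood F tests with robust dispersion, after filterByExpr), and the score slope with limma 3.58.1 (trend, robust) on log2 CPM with a prior count of 2, leaving out the genes of the score. Adjusted p-values are Benjamini-Hochberg over all genes tested, with calls under 0.05. The code was tested on simulated data. Correlations are of log2 CPM and carry no p. The rule for names took all 10 members, the 5 genes most correlated with each, and from each list the genes called, those of smallest p or those reaching 100 CPM. Further genes and lines were singled out after their values were seen. The members and lists were chosen with earlier results of these data known. Alternatives were RLE scaling, other count filters, DESeq2 1.42.0, limma-voom, non-robust dispersion, prior counts of 0.5 and 5, site, origin or repository as covariates, OZ placed with either duct site, subsets by origin, and each line left out in turn.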

Additional observations from a re-analysis of the deposited data

Results flagged for a closer look

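Within sites of 4 to 10 lines, each S100 gene was searched for a line whose gap to its nearest neighbour took up an unusually large share of the site's range on the log2 scale. Of 30 such groups, 5 held one, with shares of 0.859 or more. Smaller gaps were not flagged even where they took up most of a range. An example is the gap in S100A16 between HuH28 (47.9 CPM) and the next intrahepatic line, SNU-1079 (186 CPM), where the highest, HuCCT1, had 251 CPM. Chance flags about 1 in 20 groups of independent, untied values, but the 10 genes share the same lines and 2 of the 5 groups are S100A8 groups tied at 0 but for 1 line, so the number flagged is not to be read against that share. TFK-1 stood alone 3 times among the 5 extrahepatic lines. It was the low line for S100A4, at 12.9 CPM, with a gap of 0.903 of the range. It was the high line for S100A9, at 21.7 CPM, with a gap of 0.859, and for S100A8, at 0.283 CPM (4 counts), with a gap of 1 because the other extrahepatic lines had no count. Among the 4 intrahepatic lines, TKKK was the high line for S100P, at 74.1 CPM, with a gap of 0.907. HuH28 was the high line for S100A8 with a gap of 1, which rests on a single count (0.0856 CPM).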

How the results depend on the processing

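Calls of members changed with the test. DESeq2 called 1 member each in the extrahepatic, intrahepatic, joint site and origin comparisons, where edgeR called 0. Of all genes, DESeq2 called 182, 264 and 297 of 16615 in the first 3 and 181 of 14843 for origin. Along the score, limma-voom and repository as a covariate each left 1 member of 3, with 1338 and 818 of 16556 genes called. Over lines left out in turn, members called ran from 0 to 1 in the extrahepatic contrast (1 without NOZ) and from 2 (without HuH28) to 4 (without OCUG-1) along the score, and stayed at 0 in the others. Of all genes, the extrahepatic fit without NOZ called 1 of 16583. The score fits called 678 of 16399 without HuH28 and 1153 of 16479 without OCUG-1. Without OCUG-1, S100A16 passed (slope 0.15, adjusted p = 0.0342, over lines left out from 0.0342 to 0.478). Differences and slopes with an unadjusted p under 0.05 kept their sign under each alternative that gave a value. Signs turned only in values that had not passed. The S100A2 gallbladder difference was -0.44 under DESeq2 and ran from -0.38 (without SNU-308) to 3.13 over lines left out. The S100A9 ampullary difference ran from -5.73 (without SNU-478) to 3.97, and the S100A4 origin difference from -0.40 (without Sk-ChA-1) to 1.12. The S100A2 slope was 0.0499 with site as a covariate and -0.163 to 0.0168 over lines left out. The S100A9 slope was 0.000865 with a prior count of 5, 0.00956 under limma-voom, 0.115 with site as a covariate and -0.0600 to 0.117 over lines left out.

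Counts over all genes moved further. DESeq2 called 133 genes for ampullary, 182 for extrahepatic, 382 for gallbladder, 264 for intrahepatic, 297 for all sites jointly, 181 for origin and 221 for repository. In the ampullary contrast limma-voom called 8 genes, repository or origin as a covariate 0, and OZ as intrahepatic 4 or as extrahepatic 2. For gallbladder, origin as a covariate gave 4, and for intrahepatic limma-voom gave 3. Jointly over sites, limma-voom, repository or origin as a covariate and primary lines only each gave 0. For repository, a filter of 1 CPM in 3 lines gave 4, and limma-voom or site as a covariate 0. Along the score, 355 genes were called with site and 818 with repository as a covariate. Leaving out lines gave 1 to 11 genes for ampullary, 0 to 1 for extrahepatic, 0 to 3 for gallbladder, 0 to 7 for intrahepatic, 0 to 2 jointly, 0 to 1 for origin, 0 to 4 for repository and 678 (without HuH28) to 1394 along the score. The cause of these moves was not tested. No paired analysis was possible because replicate numbers only name lines in deposition order. At 10.47 to 15.41 M counts a level under about 0.294 CPM cannot be told from 0, which limits S100A8, S100A9 and the silent lines of S100P and S100A14.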
